A study of Mus musculus with 8 samples.

Results

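The 10 genes described here belong to the endoplasmic reticulum (ER) stress response, and were followed through brain RNA of mice with autoimmune encephalomyelitis. They were taken by name, without reference to a threshold: Hspa5, Xbp1, Sdf2l1, Creld2, Dnajb9, Dnajb11, Hsp90b1, Pdia4, Pdia6 and Manf. Of these 10, 9 had a value among the 22180 genes of the table. Pdia4, a protein disulphide isomerase, was represented only by a probe set annotated to more than 1 gene and is therefore not analysed here. Each of the 9 measured genes rested on 1 probe set.

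RNA from total brain was measured on 8 Affymetrix whole-transcript arrays. Every group carried the same immunization against myelin oligodendrocyte glycoprotein (MOG), which provokes a T cell attack on central myelin, and all brains were taken on day 14, at the maximum of disease. The 4 groups were C57BL/6Je/e mice given NDP-MSH, C57BL/6Je/e mice given phosphate-buffered saline (PBS), wild-type mice given NDP-MSH and wild-type mice given PBS, with 2 arrays each. C57BL/6Je/e mice (e/e below) lack a working Mc1r, the receptor through which melanocortins act on pigment cells, and have a yellow coat, while wild-type mice are black. The treatment was NDP-MSH, a stable synthetic form of alpha-MSH, of which each mouse received 5 µg into a vein on days 8, 10 and 12. The labels give no age or sex, and no source says whether replicates came from different animals, so the p-values cover only the spread between these samples, which may be technical.

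The ER folds secreted and membrane proteins with the help of chaperones, co-chaperones and disulphide isomerases. When unfolded proteins accumulate, the membrane sensors IRE1, PERK and ATF6 start the unfolded protein response (UPR): IRE1 splices Xbp1 mRNA into the form that encodes an active transcription factor, ATF6 is cleaved into another, and PERK slows translation and raises ATF4 and CHOP. ATF6 and XBP1 raise ER chaperone genes through the ER stress element (ERSE) in their promoters. Oligodendrocytes, which make large amounts of myelin membrane, and antibody-secreting cells are known for high demand on this pathway. The arrays give 1 value per gene and do not separate spliced from unspliced Xbp1.

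The promoters are shown because this element is the known link between several of the genes. RefSeq promoter windows (assembly GRCm38.p6, 250 bases before to 50 after the transcript start) were matched for 9 of the 10 genes, all except Manf. The ERSE was searched on both strands as CCAAT and CCACG with 9 free bases between them, and ERSE-II, a shorter relative, as ATTGG and CCACG with 1 free base between them. Whole windows are given for Hspa5 (chr2:34771840-34772139, + strand) and Creld2 (chr15:88819396-88819695, + strand), written 5′ to 3′ along the gene with the matched element in capitals.
Hspa5: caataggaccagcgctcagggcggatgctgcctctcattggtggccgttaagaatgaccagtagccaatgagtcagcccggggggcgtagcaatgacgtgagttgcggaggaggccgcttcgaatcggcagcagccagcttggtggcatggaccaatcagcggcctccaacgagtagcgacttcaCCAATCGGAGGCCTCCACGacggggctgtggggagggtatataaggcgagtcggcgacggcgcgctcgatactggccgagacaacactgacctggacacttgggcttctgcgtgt
Creld2: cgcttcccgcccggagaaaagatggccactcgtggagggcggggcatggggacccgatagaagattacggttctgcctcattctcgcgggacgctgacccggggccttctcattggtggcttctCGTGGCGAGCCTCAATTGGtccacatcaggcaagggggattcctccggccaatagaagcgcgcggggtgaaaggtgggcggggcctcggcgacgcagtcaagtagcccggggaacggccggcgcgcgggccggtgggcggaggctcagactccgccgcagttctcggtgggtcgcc

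The matches of the other genes are given alone, read 5′ to 3′ along the strand of the element, with its fixed bases in capitals and the free spacer in lower case. They lie at chr10:86705638-86705656 and chr10:86705533-86705551 for Hsp90b1 (a gene on the - strand), at chr12:17266491-17266509 for Pdia6 (+ strand) and at chr16:22857852-22857862 for Dnajb11 (+ strand).
Hsp90b1 distal: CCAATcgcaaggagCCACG
Hsp90b1 proximal: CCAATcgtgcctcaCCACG
Pdia6: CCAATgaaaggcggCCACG
Dnajb11: ATTGGcCCACG

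An ERSE was found in 4 of the 9 windows (Hspa5, Creld2, Hsp90b1 and Pdia6), against 0.119% of all 32851 promoter windows. ERSE-II was found in 1 of the 9 (Dnajb11), against 0.0365%. The ERSE was already known as a link between several of these genes, so these counts describe the windows and are no independent evidence. No window held both elements overlapping. The unfolded protein response element, searched as TGACGTGG on both strands, matched 0 of the 9 windows and 0.676% of all. The windows of Xbp1, Sdf2l1, Dnajb9 and Pdia4 held none of these letters, which says nothing about sites elsewhere. Among the other ER folding and quality control genes with a window, 4 of 20 held an ERSE (Calr, Canx, Ero1b and Dnajc3), and in the ER-associated degradation and translocation list 2 of 20 did (Syvn1 and Derl3), with ERSE-II in 1 (Herpud1). Neither element was found in 18 integrated stress response genes, 10 genes of the cytosolic heat shock list or 6 stress sensor genes.

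**Figure D1:**
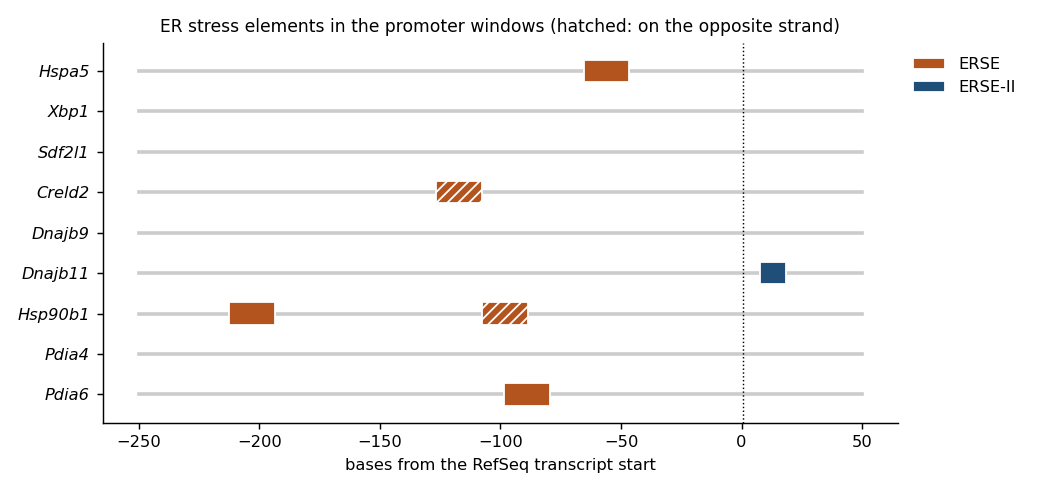
Positions of ERSE and ERSE-II matches in the promoter windows of 9 genes. The x axis gives bases from the RefSeq transcript start (dotted line), grey lines are the windows, and hatched boxes lie on the strand opposite to the gene. The Hspa5 element lies from -65 to -47, upstream of the start, and the Dnajb11 element from 8 to 18, inside the transcript.

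The deposited values were taken as log2 and had been centred gene by gene on the median of the 8 arrays, so a value tells how an array stood against the others and not how much RNA there was. A single-precision rounding step that remained in the values placed 7 of the 9 genes at a signal of 8 or above before centring and Sdf2l1 and Manf at 4 to 8. By the same measure 6137 of all 22180 genes lay at 8 or above, among them all 8 neuron markers and 8 of 9 oligodendrocyte markers. So did 7 of 11 microglia and macrophage markers, 7 of 10 cerebellum markers and 6 of 14 interferon gamma response genes. Of the B cell and plasma cell markers 0 of 9 did, and of the anterior pituitary markers 0 of 9. In whole tissue, more RNA per cell and more cells of a type cannot be told apart. Differences are log2 ± SE from limma over all 8 arrays, tested two-sided with Benjamini-Hochberg adjustment over all 22180 genes.

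Several single arrays, and both arrays of some groups, stood apart from the rest before any ER gene was considered. Wild-type NDP-MSH 1 was high in pituitary hormone transcripts, with Prl at 6.97 and Gh at 6.54, against values between -0.47 and 0.29 for both in the other 7 arrays. The cerebellar granule cell gene Gabra6 was low in both arrays of wild-type NDP-MSH (-3.35 and -2.83), against values between -0.21 and 0.50 in the other 6. The olfactory bulb gene Cdhr1 was at 2.23 in wild-type NDP-MSH 2 and 0.49 in wild-type NDP-MSH 1, against values between -0.38 and 0.13 in the other 6. Of the other genes in the olfactory bulb list, Tbx21 was also highest in wild-type NDP-MSH 2 (0.29). So was Slc17a7, at 0.20, though e/e NDP-MSH 1 was close at 0.18. Eomes and Th were highest in other arrays. The Y-linked gene Eif2s3y was high in both arrays of e/e NDP-MSH (2.78 and 2.87) and in e/e PBS 2 (2.04), against values of 0.018 or below in the other 5 arrays. Xist, expressed from the inactive X chromosome, was low in both arrays of e/e NDP-MSH (-4.46 and -4.56), against -0.82 to 0.67 elsewhere. Array e/e PBS 2 combined high Eif2s3y with an Xist value of -0.82, well above the e/e NDP-MSH arrays. Whether that array held RNA of more than 1 animal was not tested. The part of sex in the e/e comparison was not tested.

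**Figure D2:**
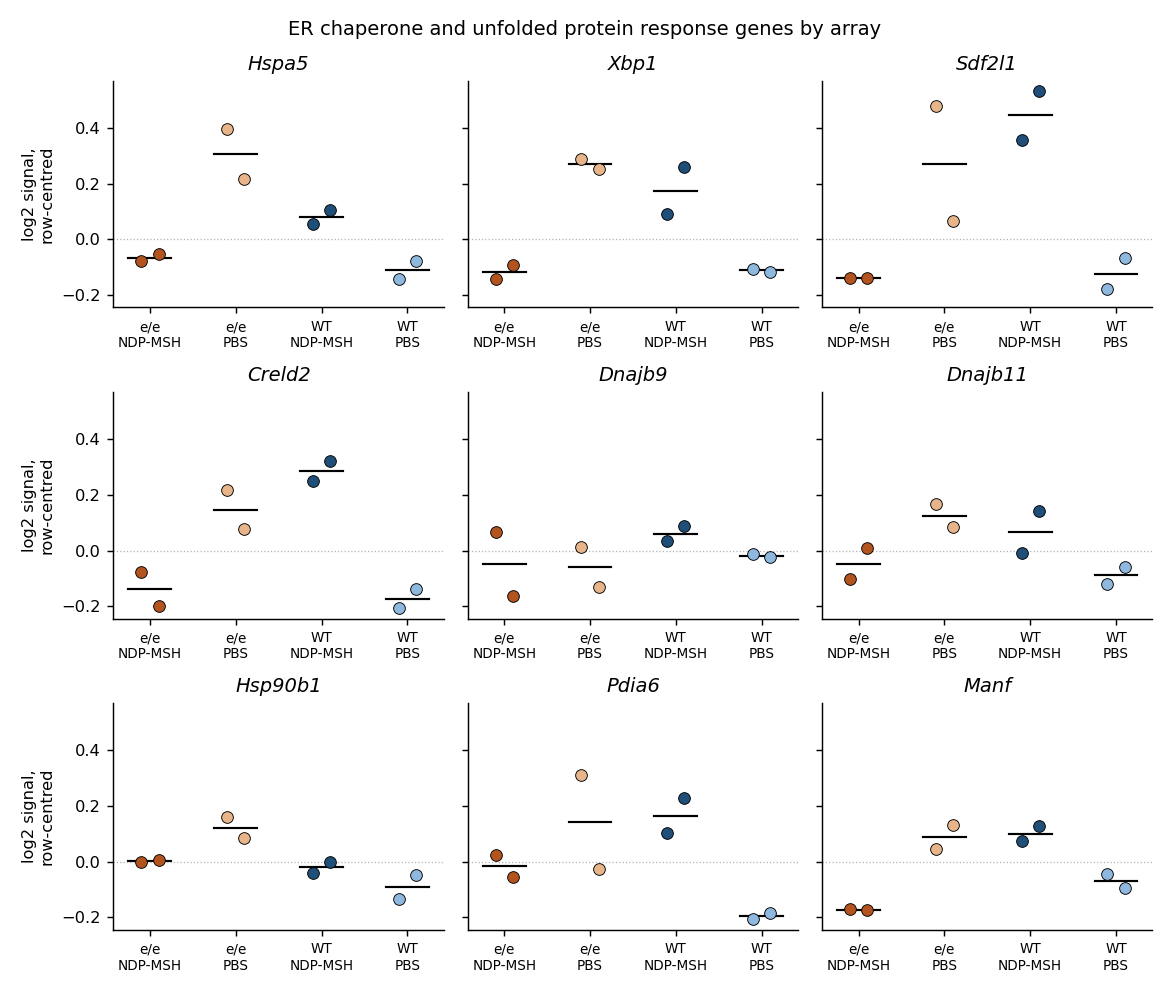
Row-centred log2 signal (y axis, shared scale) of 9 genes in 4 groups (x axis, WT is wild-type). Each point is an array, with replicate 1 left of replicate 2, and bars are means of 2. For Creld2 and Sdf2l1 the NDP-MSH arrays lie below the PBS arrays in e/e mice and above them in wild-type mice.

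The first comparison asks what NDP-MSH did in wild-type mice. The ER stress genes were higher after NDP-MSH: 9 of 9 had a positive difference, with a median of 0.19, against a median of 0.018 over all genes and 55% of all genes with a positive difference. In 9 of 9 both NDP-MSH arrays lay above both PBS arrays, against 25.3% of all genes. None of the 9 passed an adjusted p of 0.05, and 0.176% of all genes did (0.00451% higher, 0.171% lower). At an unadjusted p under 0.05, 5 of the 9 were higher, against 6.72% of all genes. The genes had been chosen with earlier results of these arrays known, so these counts describe them and are no independent evidence.

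Among the folding genes, Sdf2l1, a partner of the ER chaperone complex, differed most. It lay at 0.36 and 0.53 in wild-type NDP-MSH brains, against -0.18 and -0.067 in wild-type PBS brains. The groups did not overlap, and the difference was 0.57 ± 0.14, or 1.48-fold (limma, adjusted p = 0.228). Creld2, an ER-resident protein with EGF-like domains that is induced by ER stress, lay at 0.25 and 0.32 in NDP-MSH brains, against -0.21 and -0.14 in PBS brains. Its difference of 0.46 ± 0.09 was 1.37-fold (adjusted p = 0.152) and had the smallest p of the 9 genes. Pdia6, a disulphide isomerase, lay at 0.10 and 0.23 in NDP-MSH brains, against -0.21 and -0.19 in PBS brains, a difference of 0.36 ± 0.12 (adjusted p = 0.306).

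Hspa5 encodes BiP, the Hsp70 of the ER that also holds the sensors inactive. It lay at 0.054 and 0.11 in wild-type NDP-MSH brains, against -0.14 and -0.078 in wild-type PBS brains, a smaller difference of 0.19 ± 0.08 (adjusted p = 0.407) with groups that did not overlap. Its J-domain partner Dnajb11 differed by 0.16 ± 0.09, with -0.0081 and 0.14 in NDP-MSH brains, against -0.12 and -0.059 in PBS brains. Dnajb9, a J-domain protein that recruits BiP to IRE1, lay at 0.034 and 0.086 in NDP-MSH brains, against -0.013 and -0.024 in PBS brains, and differed by 0.079 ± 0.097. Hsp90b1, the Hsp90 of the ER (GRP94), lay at -0.041 and 0.00025 in NDP-MSH brains, against -0.13 and -0.047 in PBS brains. Its difference was 0.070 ± 0.072, and the 95% interval included 0 for all 4 of these genes (Hspa5 -0.0022 to 0.38, Dnajb11 -0.042 to 0.36, Dnajb9 -0.15 to 0.31, Hsp90b1 -0.098 to 0.24). Single arrays moved these values: Dnajb11 was at 0.082 and Dnajb9 at 0.053 without wild-type NDP-MSH 2, and Hsp90b1 at 0.027 without wild-type PBS 1 and 0.11 without wild-type PBS 2. Chaperones with an ERSE in the window were thus found at both ends of the range, Creld2 near the top and Hsp90b1 at the bottom.

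Of the regulator and the secreted factor, Xbp1 lay at 0.092 and 0.26 in wild-type NDP-MSH brains, against -0.11 and -0.12 in wild-type PBS brains. The 2 NDP-MSH arrays were further apart than the PBS arrays, and the difference was 0.29 ± 0.08 (limma, adjusted p = 0.263). Manf, an ER stress-inducible protein with neurotrophic activity, lay at 0.073 and 0.13 in NDP-MSH brains, against -0.045 and -0.095 in PBS brains, a difference of 0.17 ± 0.07 (adjusted p = 0.397).

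Regional markers differed between the same arrays. The median of 10 cerebellum markers was -1.66 and -1.48 under NDP-MSH in wild-type mice, against -0.11 and 0.21 in the wild-type PBS arrays. These markers were lower in 10 of 10, with 7 of them past the threshold for the adjusted p. Without wild-type PBS 2, 0 of all genes passed. Oligodendrocyte markers were lower in 9 of 9 with a median difference of -0.30, 0 of them past the threshold. Their part in the ER gene differences was not tested. Anterior pituitary markers reached a list median of 0.69 in wild-type NDP-MSH 1 and -0.0051 in wild-type NDP-MSH 2, and the median difference of the 9 ER stress genes was 0.23 without the first of these arrays, 0.17 without the second and 0.19 with both. B cell and plasma cell markers, of which plasma cells need Xbp1 to secrete antibody, had a median difference of -0.075, with 8 of 9 lower and 0 past the threshold.

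**Figure D3:**
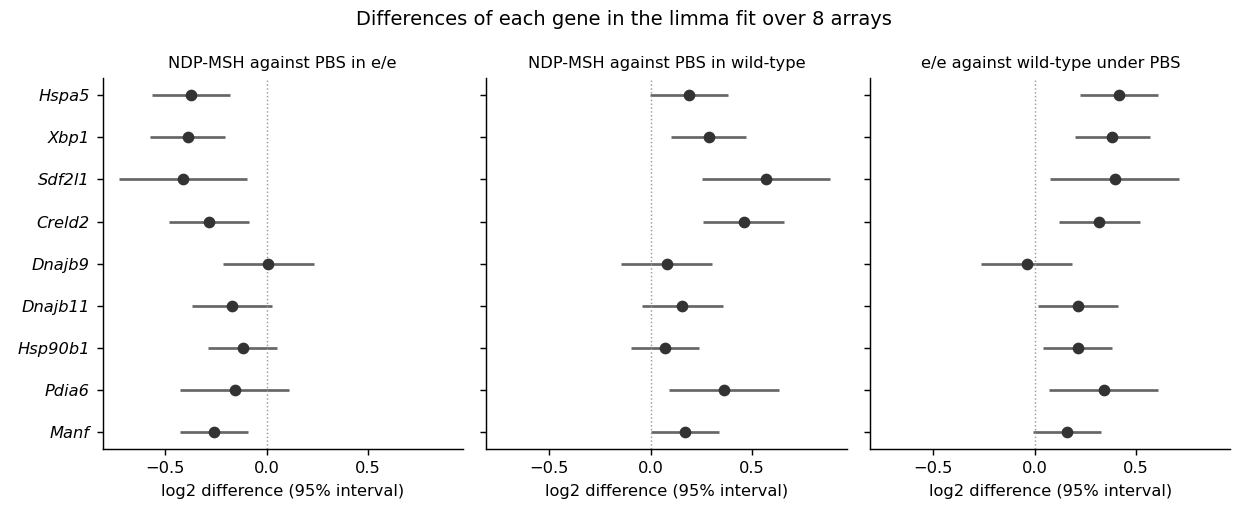
Log2 difference (x axis) of each of 9 genes in 3 comparisons, with 95% intervals from the limma fit over 8 arrays, unadjusted for the number of genes. Differences are negative for 8 of 9 genes after NDP-MSH in e/e mice, positive for 9 of 9 after NDP-MSH in wild-type mice, and positive for 8 of 9 in e/e against wild-type mice under PBS.

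The second comparison asks the same in mice without a working Mc1r. The ER stress genes were lower after NDP-MSH: 8 of 9 had a negative difference, with a median of -0.26, against a median of 0.0082 over all genes and 46.3% of all genes with a negative difference. In 7 of 9 both NDP-MSH arrays lay below both PBS arrays, against 14.3% of all genes. The exceptions were Dnajb9 and Pdia6. No gene passed by limma (0% of all genes), and at an unadjusted p under 0.05 5 of the 9 were lower (Hspa5, Xbp1, Sdf2l1, Creld2 and Manf), against 1.78% of all genes.

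Xbp1 lay at -0.14 and -0.092 in e/e NDP-MSH brains, against 0.29 and 0.25 in e/e PBS brains. The replicates of both groups were close together, and the difference of -0.39 ± 0.08 (limma, unadjusted p = 0.00148, adjusted p = 1.00) had the 13th smallest p of all genes. Hspa5 lay at -0.079 and -0.054 in e/e NDP-MSH brains, against 0.40 and 0.22 in e/e PBS brains, a difference of -0.37 ± 0.08. It ranked 20th by p. Manf lay at -0.17 in both e/e NDP-MSH brains, against 0.045 and 0.13 in e/e PBS brains, and differed by -0.26 ± 0.07.

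Sdf2l1 lay at -0.14 in both e/e NDP-MSH brains, against 0.48 and 0.067 in e/e PBS brains. The groups did not overlap, but the PBS arrays were far apart, and the difference was -0.41 ± 0.14. Creld2 lay at -0.076 and -0.20 in e/e NDP-MSH brains, against 0.22 and 0.076 in e/e PBS brains, a difference of -0.28 ± 0.09. Pdia6 was at 0.026 and -0.056 in e/e NDP-MSH brains, against 0.31 and -0.026 in e/e PBS brains, so its groups overlapped (-0.16 ± 0.12). For 2 further chaperone genes the groups did not overlap. Dnajb11 lay at -0.10 and 0.0081 in e/e NDP-MSH brains, against 0.17 and 0.084 in e/e PBS brains (-0.17 ± 0.09). Hsp90b1 lay at -0.00025 and 0.0059 in e/e NDP-MSH brains, against 0.16 and 0.084 in e/e PBS brains (-0.12 ± 0.07). Dnajb9 was spread within each e/e group, at 0.066 and -0.17 with NDP-MSH and 0.013 and -0.13 with PBS, and its difference was 0.0088 ± 0.097 (95% interval -0.22 to 0.23).

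Which e/e PBS array was used changed the sizes. Without e/e PBS 1 the median of the 9 genes was -0.21, with Sdf2l1 at -0.21, Hspa5 at -0.28 and Pdia6 at 0.010. Without e/e PBS 2 it was -0.33, with Sdf2l1 at -0.62, Hspa5 at -0.46 and Pdia6 at -0.33. Xbp1 was steadier, at -0.37 and -0.41. The list median of the ER stress genes was 0.22 in e/e PBS 1 and 0.084 in e/e PBS 2. The same 2 arrays lay far apart in inflammatory genes. The median of 14 interferon gamma response genes was -1.97 and -2.02 with NDP-MSH, against -1.70 in e/e PBS 1 and 0.69 in e/e PBS 2. They also differed in the Y-linked Eif2s3y, at -0.018 in e/e PBS 1 and 2.04 in e/e PBS 2. Microglia and macrophage markers were lower after NDP-MSH in 11 of 11 (median -0.63). Their list medians were -0.83 and -1.21 under NDP-MSH, against -0.72 and 0.050 under PBS. The part of the interferon genes, of these markers and of sex in the ER gene differences was not tested.

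**Figure D4:**
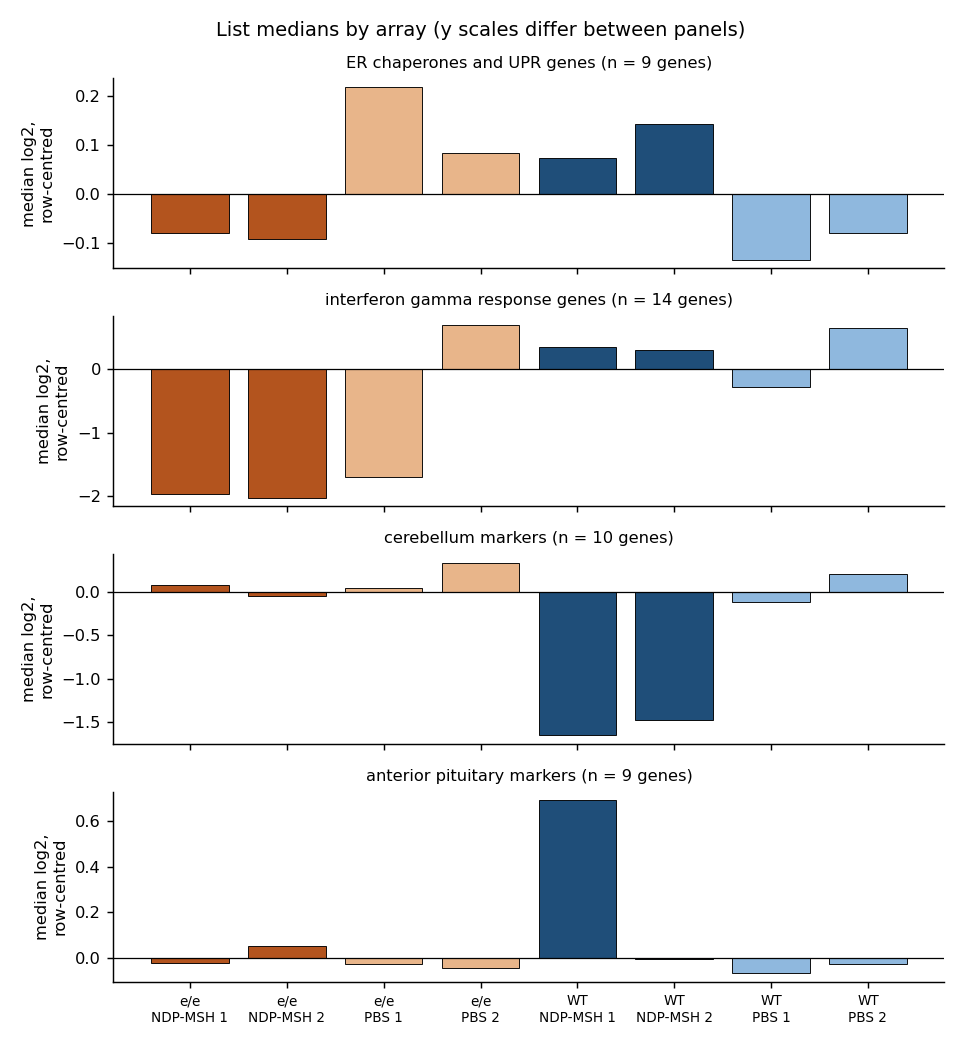
Median row-centred log2 signal (y axis, a different scale in each panel) of 4 gene lists in each of 8 arrays (x axis, WT is wild-type). The ER stress genes are above 0 in both e/e PBS and both wild-type NDP-MSH arrays, while the interferon list is at -1.70 or below in 3 of the 4 e/e arrays and the pituitary list reaches 0.69 in wild-type NDP-MSH 1.

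Without NDP-MSH, the ER stress genes were higher in e/e than in wild-type brains. Under PBS, 8 of 9 had a positive difference, with a median of 0.32, against 0.00023 over all genes, of which 50.1% had a positive difference. In 8 of 9, all but Dnajb9, both e/e arrays lay above both wild-type arrays, against 17.4% of all genes. None passed the threshold (0% of all genes), and at an unadjusted p under 0.05 7 of the 9 were higher, against 2.35% of all genes. This comparison uses the same PBS arrays as both of the treatment comparisons, so a group of PBS arrays that lies high or low enters 2 of them at once.

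Hspa5 differed most, by 0.42 ± 0.08 or 1.34-fold (limma, adjusted p = 0.869). Its lowest e/e PBS value, 0.22, lay above its highest wild-type PBS value, -0.078. Sdf2l1 differed by 0.40 ± 0.14 and Xbp1 by 0.38 ± 0.08. Pdia6 (0.34 ± 0.12), Creld2 (0.32 ± 0.09), Dnajb11 (0.21 ± 0.09) and Hsp90b1 (0.21 ± 0.07) followed, and Manf differed by 0.16 ± 0.07. Dnajb9 lay at -0.039 ± 0.097. Without e/e PBS 1 the median of the 9 genes was 0.19, with Sdf2l1 at 0.19 and Pdia6 at 0.17. Without e/e PBS 2 the median was 0.39, with Sdf2l1 at 0.60 and Pdia6 at 0.51. Mean values of interferon gamma response genes were lower in e/e PBS brains in 14 of 14 (median -0.71). Those of microglia and macrophage markers were lower in 11 of 11 (median -0.67), with 0 of either list past the threshold. The 2 e/e PBS arrays were not alike in this. The interferon list median was -1.70 in e/e PBS 1 and 0.69 in e/e PBS 2, against -0.29 and 0.63 in wild-type PBS 1 and 2. The microglia and macrophage list median was -0.72 in e/e PBS 1 and 0.050 in e/e PBS 2, against 0.018 and 0.59. The part of both lists in the ER gene differences was not tested.

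Whether the NDP-MSH effect differed between genotypes was tested as the effect in e/e mice minus the effect in wild-type mice. The difference was negative for 9 of 9 genes, with a median of -0.52, against -0.011 over all genes, of which 52.8% were negative. None passed an adjusted p of 0.05 (0% of all genes), and at an unadjusted p under 0.05 7 of the 9 were lower, against 3.67% of all genes. The difference was -0.98 ± 0.19 for Sdf2l1 (limma, adjusted p = 0.365), -0.74 ± 0.12 for Creld2 (0.312), -0.68 ± 0.11 for Xbp1 (0.332), -0.56 ± 0.12 for Hspa5 (0.392), -0.52 ± 0.16 for Pdia6 (0.559) and -0.43 ± 0.10 for Manf (0.430). Dnajb11 had -0.33 ± 0.12, Hsp90b1 -0.19 ± 0.10 and Dnajb9 -0.070 ± 0.14 (95% interval -0.39 to 0.25). In 7 of the 9 genes the NDP-MSH arrays lay below the PBS arrays in e/e mice and above them in wild-type mice, each without overlap, against 3.17% of all genes. Markers of regions and other cells differed in the same contrast. Cerebellum markers were higher in 10 of 10 (median 1.32) and oligodendrocyte markers in 9 of 9 (median 0.43), while interferon gamma response genes were lower in 14 of 14 (median -1.63) and microglia and macrophage markers in 11 of 11 (median -0.66), with 0 of these lists' genes past the threshold. Xist differed by -3.80 ± 0.67 (limma, adjusted p = 0.343). Their part in the ER gene differences was not tested.

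The 9 genes differed in how closely they followed each other over the 8 arrays. Pearson's r between a gene and the mean of the other 8 was 0.93 for Sdf2l1 and Creld2, 0.92 for Xbp1, 0.88 for Dnajb11 and Pdia6, 0.84 for Hspa5, 0.76 for Manf, 0.64 for Hsp90b1 and 0.30 for Dnajb9. These are descriptions over 8 arrays that share their group structure. Outside the 9 genes, the profiles most like their mean were those of Cldn34-ps (r = 0.98), Snx6 (0.96), Tubd1 (0.95), Cyp2j13 (0.95) and Mat1a (0.94), the highest among genes with predicted, Mir, Snor, Olfr and Vmn symbols left out. Picked as the highest of so many genes over 8 arrays, such r values can arise by selection alone. The values of Cldn34-ps ran only from -0.057 to 0.077, and shared regulation was not tested.

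The rest of the ER machinery, in lists that were also chosen with earlier results known, had medians nearer to 0. Of 23 other ER folding and quality control genes, 11 were lower after NDP-MSH in e/e mice (median 0.0025) and 16 were higher in wild-type mice (median 0.071), with 0 past the threshold in either. Calr encodes the lectin chaperone calreticulin. It lay at -0.021 and -0.030 in e/e NDP-MSH brains, 0.12 and 0.092 in e/e PBS brains, 0.021 and 0.070 in wild-type NDP-MSH brains and -0.22 and -0.13 in wild-type PBS brains. Its NDP-MSH difference was -0.13 ± 0.07 in e/e mice and 0.22 ± 0.07 in wild-type mice (limma, adjusted p = 0.304), and its difference was 0.28 ± 0.07 between genotypes under PBS. Mydgf, a secreted factor that resides in the ER, differed by 0.39 ± 0.08 in wild-type mice (adjusted p = 0.193). In e/e mice the smallest p values of this list were those of P4hb, a disulphide isomerase, at -0.17 ± 0.08 and of Dnajc3, an inhibitor of PERK, at -0.16 ± 0.08.

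ER-associated degradation and translocation genes were lower in e/e mice in 13 of 25 (median -0.017) and higher in wild-type mice in 14 of 25 (median 0.045), with 0 past the threshold. Ssr2, a subunit of the translocon-associated complex, differed by -0.18 ± 0.10 in e/e and 0.22 ± 0.10 in wild-type mice. Under PBS the smallest p values were those of the lectins Os9 (-0.27 ± 0.08) and Erlec1 (-0.23 ± 0.08), both lower in e/e, opposite in sign to the chaperones. The 8 stress sensor genes had medians of 0.00086 in e/e and -0.013 in wild-type mice, and Atf6b (0.30 ± 0.10) and Eif2ak3, which encodes PERK (-0.27 ± 0.10), pointed in opposite directions in wild-type mice.

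The integrated stress response list includes Atf4 and Ddit3, which PERK raises, but is not limited to the PERK branch. In this list 15 of 20 genes were lower in e/e mice (median -0.075), with 0 past the threshold. In wild-type mice 15 of 20 were higher (median 0.090), with 0 past the threshold. Ddit3, which encodes CHOP, lay at 0.064 and 0.16 in wild-type NDP-MSH brains, against -0.21 and -0.15 in wild-type PBS brains (0.29 ± 0.09, limma, adjusted p = 0.292). In e/e mice it differed by -0.20 ± 0.09, and the difference of effects was -0.50 ± 0.13 (adjusted p = 0.448). Slc7a5 had the smallest p of this list in e/e mice and went the other way. It was higher after NDP-MSH by 0.18 ± 0.07 (limma, unadjusted p = 0.040), and its groups did not overlap. Atf4 differed by -0.046 ± 0.067 after NDP-MSH in e/e mice, by 0.22 ± 0.07 in wild-type mice and by 0.27 ± 0.07 between genotypes under PBS. Ddit4, an inhibitor of mTORC1 that also responds to glucocorticoids and hypoxia, was lower in e/e under PBS (-0.50 ± 0.09, adjusted p = 0.839), against the direction of the chaperones.

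Genes of the cytosolic heat shock list, which serve folding outside the ER, differed in the same directions. The list also holds Hspd1 and Hspe1, which encode mitochondrial chaperonins. In e/e mice 9 of 11 were lower after NDP-MSH (median -0.061), in wild-type mice 10 of 11 were higher (median 0.22), and under PBS 11 of 11 were higher in e/e (median 0.20), with 0 past the threshold. Hspa1b, the inducible Hsp70, differed by -0.38 ± 0.25 in e/e and 0.72 ± 0.25 in wild-type mice, with PBS arrays at 0.52 and -0.093 in e/e and 0.055 and -0.54 in wild-type mice. Hspa1b and Hspa1a are near-identical copies, and sharing of probes between them was not tested. Hsph1 differed by 0.43 ± 0.12 in wild-type mice and by 0.46 ± 0.12 between genotypes under PBS (adjusted p = 0.257 and 0.887).

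**Figure D5:**
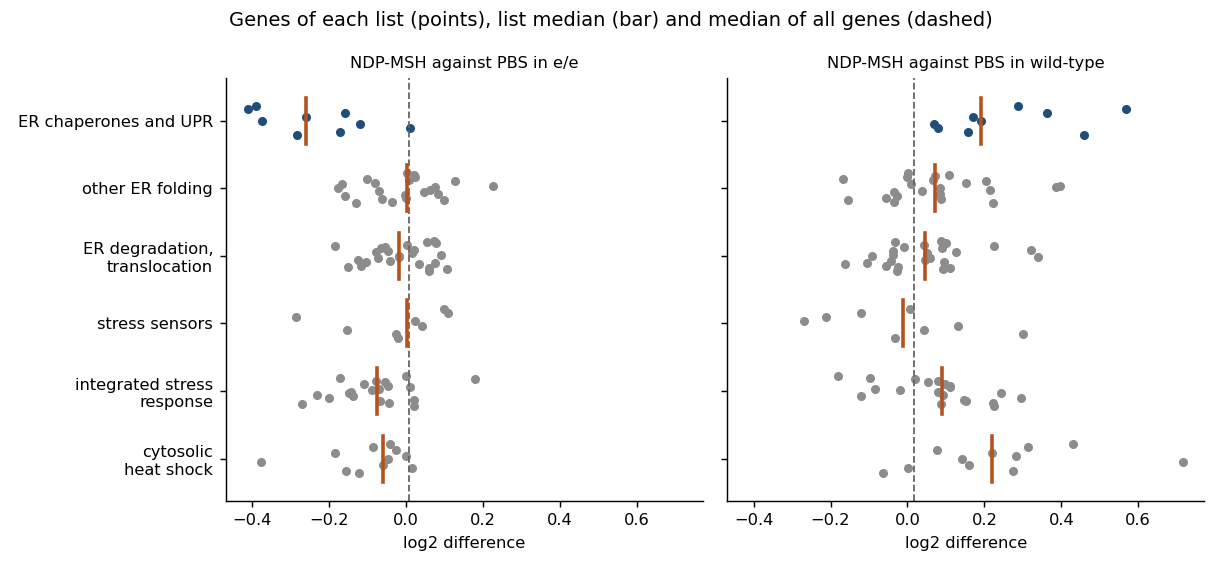
Log2 difference (x axis) of single genes (points) in 6 lists (rows) after NDP-MSH in e/e and in wild-type mice, with list medians as bars and the median of all 22180 genes dashed. The median of the ER stress genes is -0.26 in e/e and 0.19 in wild-type mice. That of the other ER folding genes is 0.0025 in e/e and 0.071 in wild-type mice. The cytosolic heat shock list has a median of -0.061 in e/e and 0.22 in wild-type mice.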

How the data were processed

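Per the labels' protocols, RNA of snap-frozen whole brain was labelled with the WT Plus kit. The authors deposited 1 table of 33793 probe sets by 8 arrays, taken as log2. For the log base, summarisation, normalization and filters nothing is stated (not given in the sources used here), and each row was found centred on its median (largest absolute row median 5e-07). Arrays were grouped by title.

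Probe sets with 1 gene symbol (23521; 1814 had several, 8458 were unnamed) were averaged per gene, which gave 22180 genes. limma 3.58.1 in R 4.3.3 was fitted over all 8 arrays with 1 coefficient per group (4 residual and 3.45 prior degrees of freedom). The number of arrays limits the precision.

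The members and lists were chosen with earlier results of these data known. Named genes were the 10 members, from each other list and comparison up to 2 rises and 2 falls past the threshold or else the 2 smallest p, the 5 most alike profiles (predicted, Mir, Snor, Olfr and Vmn symbols left out) and fixed markers. Canx, Ero1b, Syvn1, Derl3 and Herpud1, named for a motif, fall outside that rule. Alternatives were the replicate block, array weights, quantile normalization, centred array medians, only the 4 arrays compared, robust moderation, a signal of 8 or above (remaining rounding step, tolerance 0.05), probe sets tested singly, and omission of each array in turn. Slide and scan date were not used here. Figures used matplotlib 3.10.9 in Python 3.11.15.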

Additional observations from a re-analysis of the deposited data

Results flagged for a closer look

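In 7 genes the arrays with NDP-MSH lay below those with PBS in e/e mice and above them in wild-type mice, without overlap. The difference of the effects, e/e minus wild-type, was -0.98 for Sdf2l1, -0.74 for Creld2, -0.68 for Xbp1, -0.56 for Hspa5, -0.43 for Manf, -0.33 for Dnajb11 and -0.19 for Hsp90b1. The test of this difference passed for 0 of them after adjustment over all genes (limma, smallest adjusted p = 0.312, between 0.130 and 0.825 over 15 alternative settings), and 3.17% of all genes had the same arrangement of arrays. In the same contrast, cerebellum markers were higher in 10 of 10 (median 1.32), oligodendrocyte markers higher in 9 of 9 (median 0.43), interferon gamma response genes lower in 14 of 14 (median -1.63) and Xist lower by a log2 difference of -3.80, and the part of these in the ER gene differences was not tested.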

How the results depend on the processing

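No gene of the 9 passed an adjusted p of 0.05 in any comparison under the alternatives run (16 for each pairwise comparison and 15 for the difference of effects), with the smallest limma adjusted p at 0.330 in e/e mice, 0.0768 in wild-type mice (signal of 8 or above), 0.191 between genotypes under PBS and 0.130 for the difference of effects. The count of higher and lower genes among the 9 was as reported in 12 alternatives in e/e mice, 15 in wild-type mice, 14 between genotypes and 12 for the difference of effects, and the setting at a signal of 8 or above held 7 of the 9. The median of the 9 genes lay at -0.17 in e/e mice at a signal of 8 or above, and at 0.39 between genotypes after quantile normalization. Leaving out 1 array at a time, it ranged over -0.33 to -0.21 in e/e mice, 0.17 to 0.23 in wild-type mice, 0.19 to 0.39 between genotypes and -0.65 to -0.46 for the difference of effects. Signs turned for Dnajb9 in e/e mice on omission of e/e PBS 2 (-0.063) or of e/e NDP-MSH 1 (-0.11, range -0.11 to 0.12), between genotypes on omission of e/e PBS 2 (0.032) and in the difference of effects on omission of e/e PBS 1 (0.0012) or, with NDP-MSH, of e/e array 2 (0.046, range -0.19 to 0.046), and for Pdia6 in e/e mice on omission of e/e PBS 1 (0.010). Over all genes, the 39 calls in wild-type mice became 14 with the replicate block, 20 after quantile normalization, 5 with only the 4 arrays compared and 22 with each row as its own feature, and 0 to 49 without 1 array: 0 without wild-type PBS 2, 7 or 11 without wild-type NDP-MSH 1 or 2, 13 without either e/e NDP-MSH array, 15 without wild-type PBS 1 and 49 without either e/e PBS array. The 0 calls elsewhere became 51 in e/e mice when e/e PBS 1 was left out and 4 when e/e PBS 2 was, 4 between genotypes on omission of e/e PBS 1, and for the difference of effects 7 or 3 on omission of e/e PBS 1 or 2 and 1 or 5 on omission of wild-type NDP-MSH 1 or 2. The difference of effects also gave 1 after quantile normalization and 5 with dimmer genes left out. Replicate numbers are shared between groups without a stated pairing, so same-numbered arrays were not taken as pairs. Their deviations from the group means correlated between -0.25 and 0.44, the highest for wild-type PBS with e/e PBS. With 2 arrays per group these values cannot decide whether arrays were paired or shared a batch. Under the replicate block the smallest limma adjusted p of the 9 genes in wild-type mice was 0.197, and no call among them changed. The fit on only the 4 arrays compared has no value for the difference of effects, which needs all groups. The cause of these changes was not tested.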
